A study of Rattus norvegicus with 6 samples.

Results

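The secreted Wnt antagonists are 8 of the 22093 named genes measured in rat tendon: Sfrp1, Sfrp2, Sfrp4, Sfrp5, Frzb, Dkk2, Dkk3 and Wif1. They were chosen by name, and each was read by 1 probe set, the only one on the array that names that gene alone. Tendons came from Sprague-Dawley rats, in 2 groups of 3 arrays: rats with injured tendons, and rats with control surgery. Tissue was taken 1 week after injury, no transgene or other agent is named for either group, and the labels do not say which tendon was injured, how, or the age and sex of the rats. The labels call the replicates biological, without saying that each is 1 animal, so the p-values measure the spread between these samples.

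Wnt proteins are secreted lipid-modified ligands that bind Frizzled receptors and the co-receptors Lrp5 and Lrp6, and one branch of their signalling stabilises beta-catenin and turns on target genes. Secreted antagonists hold this signal back outside the cell. The Sfrp proteins and Frzb carry a Frizzled-like cysteine-rich domain and bind Wnt ligands, Wif1 binds Wnt ligands through a different domain, and the Dickkopf proteins act chiefly on the Lrp co-receptors, with Dkk3 a divergent member whose part in Wnt signalling is less settled. In connective tissues these genes are expressed largely by fibroblast-like cells, and Frzb is also known from cartilage.

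Of these genes, Sfrp2, Sfrp4, Dkk2 and Dkk3 read lower on all 3 injured arrays than on any control array, while Frzb, Sfrp5 and Wif1 differed little as deposited and Sfrp1 lay between. None passed the test across all genes, and neither did any other gene: 0 of 22093 genes (0%) had a limma adjusted p under 0.05, and 2572 had an unadjusted p under 0.05. Groups that did not overlap, with injured lower, were seen for 4 of 8 antagonists and for 8.00% of all genes. The same 4 genes were also at least 2-fold lower without overlap, as were 3.92% of all genes. An unadjusted p under 0.05 with injured lower was reached by 4 of 8, against 7.25% of all genes. In the higher direction, 0 of 8 reached it, against 4.39% of all genes, and 0 of 8 were higher without overlap, against 7.09%. Differences below 0 were seen for 6 of 8, against 38.4% of all genes. The median difference over the 8 genes was -0.87 on the log2 scale, against 0.15 over all named genes. On injured replicates 1, 2 and 3 the median of the 8 genes stood at -0.96, -0.66 and -0.88 from the control mean, where all named genes stood at -0.02, 0.24 and 0.18.

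The arrays were not alike. Injured replicate 1 correlated across genes with the control arrays at r = 0.951 to 0.966 and with injured replicates 2 and 3 at only 0.728 and 0.790, so on most genes it resembled the controls. The median unnamed probe set, taken here as a guide to background, read 5.59, 6.61 and 6.50 on injured replicates 1, 2 and 3, against 5.49, 5.58 and 5.79 on control replicates 1, 2 and 3. A signal near these values is limited by background. Most tenocyte markers were above background on the control arrays, as the tissue label requires. Scx, chosen after its values were seen, was near background there, at 5.70, 5.67 and 5.75 on control replicates 1, 2 and 3. The skeletal muscle markers Acta1 and Myh4 were also chosen after their values were seen. They reached the top of the scale in every control sample and in injured replicate 1. Acta1 also did so in injured replicate 3, so muscle RNA was also there.

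**Figure D1:**
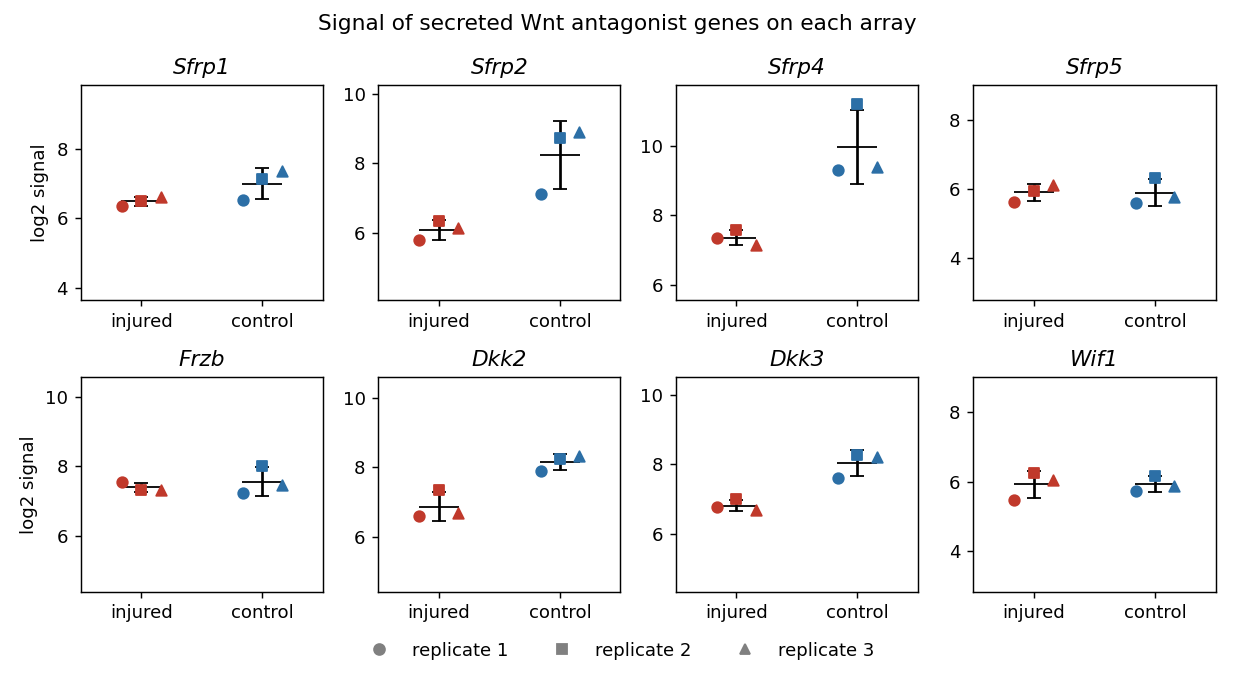
Log2 signal (vertical axis, each panel spanning the same number of log2 units) of the 8 secreted Wnt antagonist genes on 3 injured arrays (red, left) and 3 control arrays (blue, right); symbols mark replicates, and bars show the mean and SD. For Sfrp2, Sfrp4, Dkk2 and Dkk3 all injured arrays lie below all control arrays, and for the other genes the groups overlap.

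Sfrp4, a secreted Frizzled-related protein whose loss in humans disturbs bone, read lower on every injured array than on any control array. Its probe set (TC1700001868.rn.1) read 7.34, 7.58 and 7.15 on injured replicates 1, 2 and 3, against 9.30, 11.20 and 9.41 on control replicates 1, 2 and 3. The injured arrays lay close together and well under the lowest control, and control replicate 2 stood above the other controls. The means were 7.36 ± 0.22 in injured and 9.97 ± 1.07 in control tendon (SD, n = 3 each). The difference was -2.61 (SE 0.54, 95% interval -3.96 to -1.27), or 6.12-fold (limma adjusted p = 0.322). All injured values were above the median unnamed probe set of their array, by 0.65 to 1.75.

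Sfrp2, a Wnt-binding protein made by fibroblasts, was likewise lower on every injured array. Its probe set (TC0200001466.rn.1) read 5.78, 6.33 and 6.12 on injured replicates 1, 2 and 3, against 7.10, 8.72 and 8.89 on the control arrays in the same order. Control replicate 1 was the lowest control and was still above every injured array. Means were 6.08 ± 0.28 in injured and 8.24 ± 0.99 in control tendon (SD, n = 3 each), a difference of -2.16 (SE 0.51, 95% interval -3.43 to -0.89), or 4.47-fold (limma adjusted p = 0.322). On injured replicates 1, 2 and 3 Sfrp2 stood at 0.19, -0.28 and -0.38 from the median unnamed probe set, so its signal there was at background and the size of the difference is limited by it.

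Sfrp2 and Frzb are related genes, of which Sfrp2 read lower on every injured array and Frzb did not. The 250 bases before each start site are shown for that contrast, from RefSeq on assembly GRCr8, where 4 of the 8 genes matched. Capitals mark CG dinucleotides, the bases that carry DNA methylation, which was not measured here. The Sfrp2 window is chr2:171387286-171387535 on the plus strand and the Frzb window chr3:85772097-85772346 on the minus strand, both written 5′ to 3′.
Sfrp2: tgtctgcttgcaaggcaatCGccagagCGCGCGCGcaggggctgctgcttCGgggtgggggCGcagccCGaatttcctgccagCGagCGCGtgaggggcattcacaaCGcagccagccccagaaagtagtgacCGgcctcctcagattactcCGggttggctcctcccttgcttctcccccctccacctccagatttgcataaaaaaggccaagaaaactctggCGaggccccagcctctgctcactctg
Frzb: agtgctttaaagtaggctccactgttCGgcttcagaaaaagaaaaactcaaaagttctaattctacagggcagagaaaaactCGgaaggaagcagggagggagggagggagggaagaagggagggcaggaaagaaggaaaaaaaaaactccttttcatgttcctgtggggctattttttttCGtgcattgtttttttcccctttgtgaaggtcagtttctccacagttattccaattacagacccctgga
The Sfrp2 window was 62.4% G and C with 15 CG dinucleotides, more than 72.1% of 27457 promoter windows of that length hold. The Frzb window was 43.6% G and C with 3 CG dinucleotides, more than 27.6% of the windows hold. Searched on both strands, the E-box CANNTG, a motif of basic helix-loop-helix factors, was in neither window, while 65.2% of all windows held one. The word CTTTGAT, bound by the TCF/LEF factors of the Wnt pathway, was likewise in neither, against 3.2% of all windows. Among the other matched genes, the Sfrp5 window held 12 CG dinucleotides, 1 E-box and 0 copies of CTTTGAT, and the Wif1 window 27 CG dinucleotides, 1 E-box and 0 copies.

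Dkk2, a Dickkopf protein that binds Lrp6, read lower on every injured array. Its probe set (TC0200002227.rn.1) read 6.60, 7.34 and 6.68 on injured replicates 1, 2 and 3, against 7.89, 8.25 and 8.33 on control replicates 1, 2 and 3. Injured replicate 2 was the nearest to the controls and remained below the lowest of them. Means were 6.87 ± 0.41 in injured and 8.16 ± 0.23 in control tendon (SD, n = 3 each), a difference of -1.28 (SE 0.26, 95% interval -1.93 to -0.64), or 2.43-fold (limma adjusted p = 0.322).

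Dkk3 had almost the same difference, with a narrower spread among injured arrays and a wider one among controls. Its probe set (TC0100006415.rn.1) read 6.76, 6.99 and 6.68 on the injured arrays, against 7.61, 8.27 and 8.22 on the control arrays. The injured arrays were close to one another, and control replicate 1 was the lowest control. Means were 6.81 ± 0.16 in injured and 8.03 ± 0.37 in control tendon (SD, n = 3 each), a difference of -1.22 (SE 0.23, 95% interval -1.80 to -0.65), or 2.33-fold (limma adjusted p = 0.322). Its unadjusted p of 0.00226 was the smallest of the 8 genes and ranked 125 among all named genes. Dkk2 and Dkk3 both stood 0.18 above the median unnamed probe set on injured replicate 3, near background, and 1.01 and 1.17 above it on injured replicate 1. On injured replicate 2 they stood 0.73 and 0.38 above it. Where these signals are near background, the size of the difference is limited by it.

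Sfrp1, another Wnt-binding Frizzled-related protein, differed by less. Its probe set (TC1600001899.rn.1) read 6.36, 6.49 and 6.60 on the injured arrays, against 6.51, 7.12 and 7.36 on the control arrays. Only control replicate 1 fell within the injured range. On injured replicates 2 and 3 Sfrp1 stood at -0.12 and 0.10 from the median unnamed probe set, at background, which limits the difference. It was -0.51 (SE 0.25, 95% interval -1.15 to 0.12; limma adjusted p = 0.322).

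Frzb, the Frizzled-related protein first known from cartilage, read much the same in both groups. Its probe set (TC0300003408.rn.1) read 7.55, 7.32 and 7.33 on the injured arrays, against 7.22, 8.01 and 7.45 on the control arrays, so the injured values lay inside the control range. The difference was -0.16 (SE 0.24, 95% interval -0.76 to 0.44; limma adjusted p = 0.656). The interval includes a change of close to 0.76 in the lower direction, so a modest difference is not shown to be absent. After quantile normalization the difference was -0.49, after centring on array medians -0.69, and without control replicate 2 it turned to 0.065.

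Wif1 and Sfrp5 were near background on both groups of arrays. Wif1 (TC0700000808.rn.1) read 5.49, 6.26 and 6.04 on injured replicates 1, 2 and 3, against 5.73, 6.18 and 5.87 on the control arrays. Sfrp5 (TC0100007715.rn.1), better known from adipose tissue, read 5.63, 5.95 and 6.12 on the injured arrays, against 5.58, 6.32 and 5.78 on the control arrays. Both groups overlap for either gene. Their differences were 0.0033 (SE 0.26) for Wif1 and 0.0067 (SE 0.26) for Sfrp5, with limma adjusted p of 0.993 and 0.987, and both signs turned under quantile normalization, to -0.51 and -0.50, and under centring, to -0.52 for each.

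**Figure D2:**
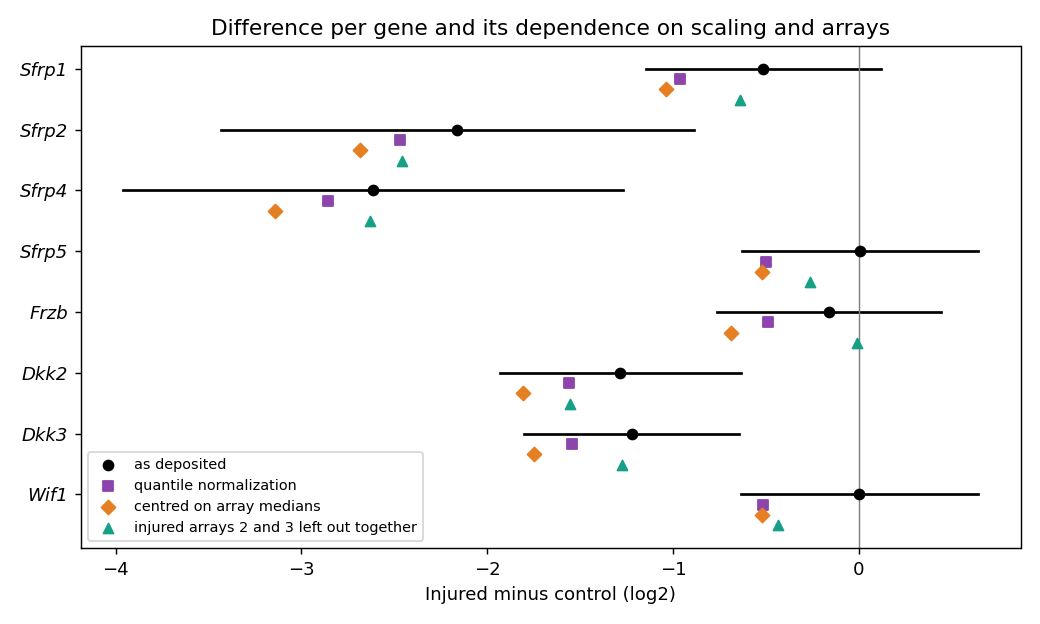
Difference of injured minus control (horizontal axis, log2 units) for each gene from the deposited values (black, with 95% intervals from limma), after quantile normalization, after centring on array medians, and with injured replicate 1 alone against the 3 controls. The intervals of Sfrp2, Sfrp4, Dkk2 and Dkk3 lie below 0 as deposited, those of the other 4 genes include 0, and the differences of Wif1 and Sfrp5 are above 0 as deposited and below 0 in the other 3 settings.

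The lower values of Sfrp2, Sfrp4, Dkk2 and Dkk3 were seen on injured replicate 1 as well as on the arrays that stood apart. With injured replicate 1 alone against the 3 controls, the differences were -2.63 for Sfrp4, -2.46 for Sfrp2, -1.56 for Dkk2 and -1.27 for Dkk3. The limma adjusted p of these 4 genes was 0.336 to 0.731 in that fit, which assumes that the lone array would vary like the controls. Without injured replicate 1 the differences were -2.61, -2.01, -1.15 and -1.20 in the same order, with limma adjusted p of 0.0195, 0.0320, 0.0148 and 0.0125, but 13418 of 22093 genes were called in that fit. The 4 calls there are therefore read against that wide background. Leaving out any other single array gave 0 calls among all genes. Those 4 genes kept differences below 0 in all 16 alternative settings, but most of these could not have turned the sign. Where groups do not overlap, leaving out or weighting arrays cannot turn it, and other settings returned the deposited difference unchanged. Only quantile normalization, centring and the background covariate could have turned it.

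Whether the antagonists differed by unequal amounts was looked at against Frzb, chosen after its values were seen. Subtracting Frzb from another gene on the same array removes any shift that both genes share. Sfrp4 minus Frzb was -0.21, 0.26 and -0.18 on the injured arrays, against 2.08, 3.19 and 1.96 on the control arrays, a difference of -2.45. Sfrp2 minus Frzb differed by -2.00, Dkk2 minus Frzb by -1.12, Dkk3 minus Frzb by -1.06 and Sfrp1 minus Frzb by -0.35. In a two-sided exact permutation test over the 6 arrays the first 4 contrasts had p = 0.1, the smallest that 3 against 3 arrays can give, and the Sfrp1 contrast p = 0.4. Adjusted over these 5 contrasts the values were 0.125 and 0.4. No contrast could have passed in this design, so the test says nothing on whether the genes differed unequally, and the Sfrp2 contrast is limited by background on the injured arrays.

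The position of a gene among all named genes of its array is not moved by a shift that all genes share, but it is moved where groups of genes shift unequally. The 1276 olfactory and vomeronasal receptor genes had medians of -0.03, 2.11 and 2.03 from the control mean on injured replicates 1, 2 and 3, so dim genes can lose places there to such genes, and this was not tested. Sfrp2 stood at percentiles 37.7, 33.2 and 28.4 on injured replicates 1, 2 and 3, against 65.4, 82.8 and 86.4 on control replicates 1, 2 and 3. Sfrp4 stood at 63.9 to 75.9 in injured and 86.8 to 95.1 in control tendon, and Dkk3 at 48.2 to 59.8 in injured and 71.8 to 80.5 in control tendon. Dkk2 stood at 48.2 to 69.2 in injured and 74.9 to 81.7 in control tendon. By this measure Sfrp1 and Wif1 were also lower without overlap, at 39.1 to 52.1 in injured and 56.1 to 68.9 in control tendon for Sfrp1 and at 25.8 to 30.7 in injured and 35.4 to 47.3 in control tendon for Wif1. Frzb and Sfrp5 overlapped. In all, 6 of 8 antagonists had a lower percentile without overlap, against 13.0% of all named genes. For Wif1, near background in both groups, and for Sfrp2 and Sfrp1, near background on injured arrays, a percentile places a signal among dim probe sets and is not read as a change in expression.

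**Figure D3:**
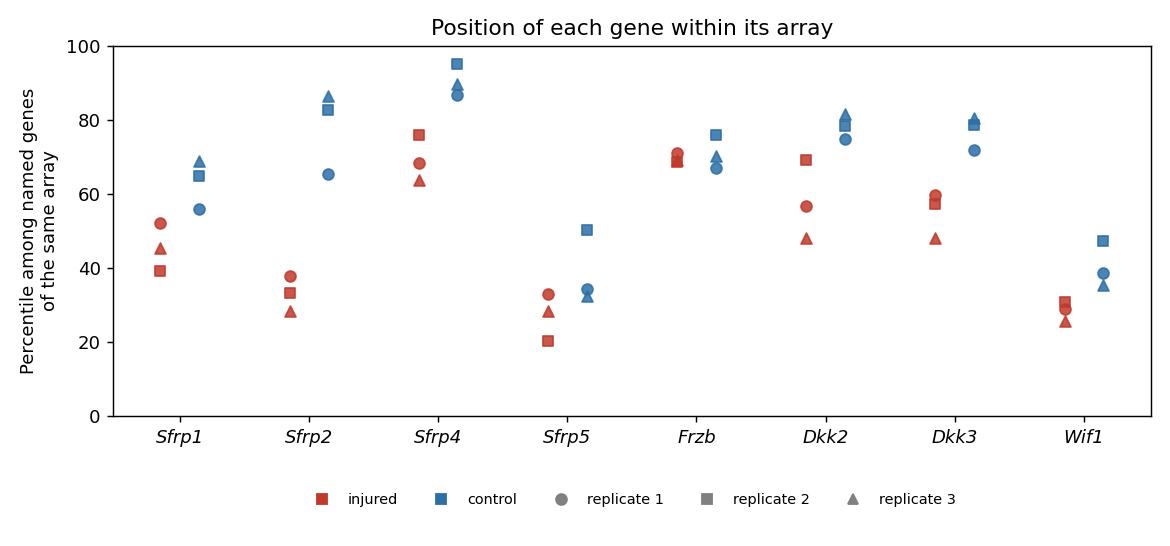
Percentile of each gene among all 22093 named genes of the same array (vertical axis), with 3 injured arrays in red on the left and 3 control arrays in blue on the right of each gene, and symbols for replicates. Sfrp2 lies at 28.4 to 37.7 on injured arrays and 65.4 to 86.4 on control arrays, while Frzb and Sfrp5 overlap between the groups.

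All 8 antagonists were lowest on control replicate 1 among the controls, a position held there by 47.3% of all named genes. The median of the 8 genes was -0.38, 0.34 and 0.06 from the control mean on control replicates 1, 2 and 3.

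The other genes of the Wnt pathway were described from lists by role. Among 8 other antagonists and inhibitors, 1 difference was below 0 and 7 above, with a median of 0.34, and none reached an unadjusted p under 0.05. Of all named genes, 38.4% had a difference below 0, and their median was 0.15. Dkk1, Notum, Cer1 and Draxin, chosen after their values were seen, read below the median unnamed probe set on every array. Their signals were thus at background. Apcdd1, a membrane inhibitor of Wnt signalling, read 7.30, 5.82 and 6.01 on the injured arrays, against 7.08, 8.76 and 7.27 on the control arrays, a difference of -1.33 (SE 0.61). Sostdc1, a secreted antagonist of BMP and Wnt, differed by 0.58 (SE 0.37). On injured replicates 1, 2 and 3 the list's median was -0.09, 0.66 and 0.41.

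The 19 Wnt ligands were dim. Their median difference was 0.19, with 2 below 0 and 17 above, near the 0.15 of all genes, and none reached an unadjusted p under 0.05. Groups that did not overlap, with injured higher, were seen for 2 of 19, against 7.09% of all genes. These were Wnt2b and Wnt10a, chosen after their values were seen, and both read below the median unnamed probe set on every array. Wnt2 read 5.74, 6.82 and 6.53 on the injured arrays, against 5.67, 5.72 and 5.96 on the control arrays (difference 0.58, SE 0.31), and Wnt16 differed by 0.19 (SE 0.20). Wnt2 on injured replicate 1 was inside the control range. Of the 2 secretion genes, Wls, the carrier that takes Wnt ligands to the cell surface, read 9.13, 7.70 and 8.00 on the injured arrays, against 10.01, 10.24 and 9.80 on the control arrays, a difference of -1.74 (SE 0.40; limma adjusted p = 0.322). All injured arrays were below all controls. Porcn, which attaches the lipid to Wnt ligands, differed by 0.08 (SE 0.14).

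R-spondins, which enhance Wnt signalling, and their receptors had a median of 0.11 over 7 genes. Lgr4, an R-spondin receptor, read 8.43, 7.08 and 7.17 on the injured arrays, against 9.19, 9.02 and 8.47 on the control arrays (difference -1.33, SE 0.43), and Rspo3 differed by -0.18 (SE 0.25). Receptors and co-receptors had a median of -0.13 over 17 measured genes. Of these, 3 were lower without overlap and at an unadjusted p under 0.05, against 8.00% and 7.25% of all genes. Lrp6, the co-receptor that Dkk proteins bind, read 9.85, 7.29 and 7.56 on the injured arrays, against 10.41, 10.74 and 10.53 on the control arrays, a difference of -2.33 (SE 0.70; limma adjusted p = 0.322). It was nearest to control on injured replicate 1 and lower still on the other injured arrays. Ryk, a Wnt receptor of the receptor kinase family, read 11.52, 7.60 and 8.39 on the injured arrays, against 12.08, 11.24 and 11.05 on the control arrays. It was inside the control range on injured replicate 1, 0.06 from the control mean, and at -3.86 and -3.07 on injured replicates 2 and 3, so its difference of -2.29 (SE 1.05) rests on those arrays. Chosen after their values were seen, Lrp5 differed by -0.76 (SE 0.23) and Fzd8 by -0.49 (SE 0.18). On injured replicates 2 and 3 Fzd8 read below the median unnamed probe set, at background, which limits its difference.

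Inside the cell, 13 measured pathway genes had a median of -0.02, and none reached an unadjusted p under 0.05. Ctnnb1, which encodes beta-catenin, read 12.46, 8.49 and 8.26 on the injured arrays, against 12.17, 12.27 and 11.54 on the control arrays. It was above every control on injured replicate 1 and below them all on the other injured arrays. Csnk1a1, a kinase that marks beta-catenin for breakdown, read 12.15, 9.45 and 10.30 on the injured arrays, against 12.31, 11.82 and 11.21 on the control arrays. Csnk1a1 was inside the control range on injured replicate 1, and its difference of -1.15 (SE 0.73) rests on the other injured arrays. The 10 target genes had a median of 0.08, with 1 lower at an unadjusted p under 0.05, against 7.25% of all genes. Lower without overlap were 3, against 8.00% of all genes. Those 3 were Nkd1 and Nkd2, inhibitors of the pathway inside the cell, at -0.10 (SE 0.13) and -0.18 (SE 0.14), and Ccnd1, all chosen after their values were seen. Ccn4 differed by 0.31 (SE 0.25) and Myc by 0.22 (SE 0.24). Axin2, the target most often used as a readout of beta-catenin signalling and chosen after its values were seen, differed by 0.07 (SE 0.15). Axin2 read below the median unnamed probe set on every array, so its signal was at background and cannot show whether the gene changed. Ccnd1, a cyclin gene, read 6.08, 6.22 and 6.31 on the injured arrays, against 6.53, 6.91 and 6.73 on the control arrays (difference -0.52, SE 0.17, limma adjusted p = 0.322). Ccnd1 on injured replicates 2 and 3, and Nkd2 on every injured array, read below the median unnamed probe set. Background therefore limits both differences. No gene of these lists passed the threshold.

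**Figure D4:**
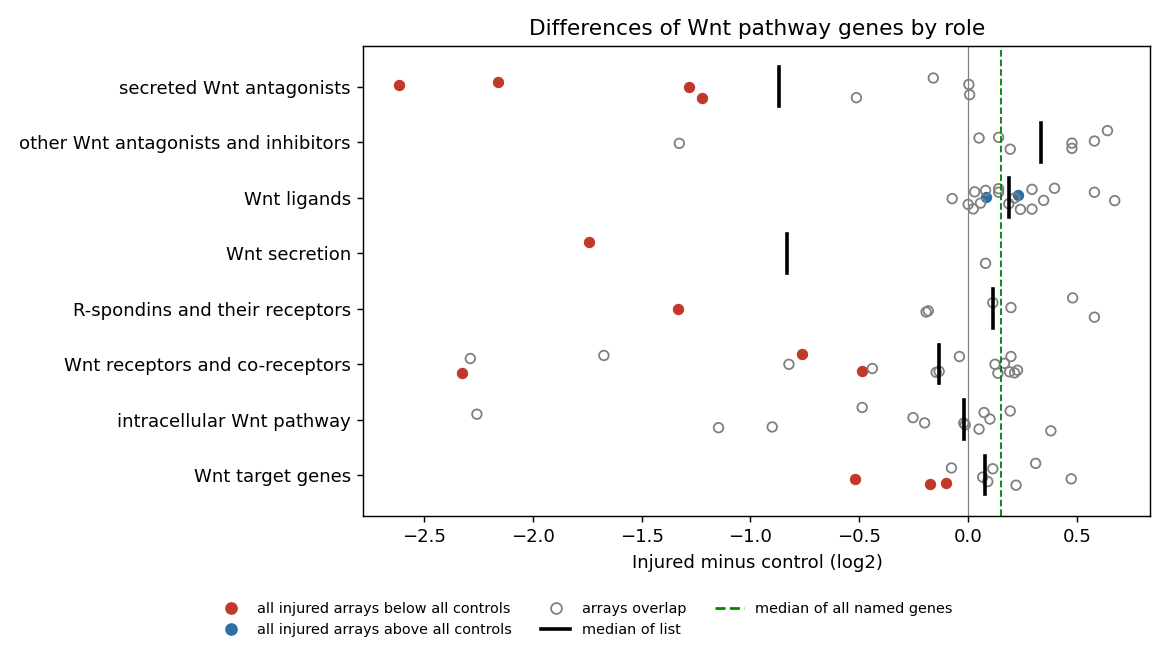
Difference of injured minus control (horizontal axis, log2 units) for each measured gene of the Wnt pathway, in rows by role; red points have all 3 injured arrays below all 3 controls, blue points all above, open points overlap, black bars are list medians, and the dashed line is the median of all named genes at 0.15. The 4 red points of the top row are Sfrp4, Sfrp2, Dkk2 and Dkk3, while most Wnt ligands lie close to the dashed line; a scaling by quantiles or array medians moves the median of all genes below 0.

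Markers of the cells that tendon samples hold differed as well, though none passed the threshold, and in bulk tissue fewer cells of a type cannot be told apart from less RNA per cell. Lower without overlap were 8.00% of all genes, the share to set beside each such count below. Tenocyte markers were lower without overlap for 8 of 9 genes, with a median of -3.83, -6.88 and -4.76 on injured replicates 1, 2 and 3. Their summed signal (log2) was 11.1 to 13.8 in injured and 16.7 to 20.1 in control tendon. Fibroblast markers had a median difference of -2.79, with 3 of 7 lower without overlap, among them Pdgfra, chosen after its values were seen, at 9.45, 8.34 and 7.95 on the injured arrays, against 11.06, 13.10 and 12.45 on the control arrays. On injured replicate 1 the fibroblast median was -1.94. Adipocyte markers had a median of -3.25 over 4 genes, with 3 lower without overlap and -1.46 on injured replicate 1. Macrophage markers had a median of -0.59 over 6 genes, with 4 lower without overlap and -0.47 on injured replicate 1. Endothelial markers had a median of -1.53 over 4 genes, with 1.18, -3.04 and -2.78 on injured replicates 1, 2 and 3. Smooth muscle and pericyte markers had a median of -3.47 over 3 genes, with 0.68, -5.73 and -5.37 on those arrays. Tenocyte, fibroblast, adipocyte and macrophage medians were thus below the control mean on injured replicate 1, and endothelial and smooth muscle medians above it. Control arrays spread too: on control replicate 1 the first 4 medians were -1.72, -0.92, -1.13 and -0.48 in that order. On control replicate 2 the endothelial and smooth muscle medians were 0.76 and 1.01. The macrophage and smooth muscle medians of injured replicate 1 were therefore inside the control range. Chondrocyte markers had a median of -0.15 over 4 genes. Skeletal muscle markers had a median of -4.20 over 5 genes, with 0.00 on injured replicate 1. Neutrophil markers were at 0.99 over 6 genes, with 0.00, 1.92 and 1.13 on injured replicates 1, 2 and 3. The olfactory and vomeronasal receptor genes stood at 2.11 and 2.03 on injured replicates 2 and 3. The 2 measured keratinocyte markers were at 1.68, with 3.65 on injured replicate 1, and the 1 measured Schwann cell marker at 0.14. Reference genes had a median of -1.67 over 10 measured genes, with -0.20, -2.94 and -2.51 on injured replicates 1, 2 and 3. Of these, B2m differed by -2.02 (SE 0.74), and Gapdh was at the ceiling. The part of cell make-up in the lower antagonist signals was not tested.

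The genes whose per-array differences were closest to the median of the 8 antagonists over the 6 arrays were Apol9a, Septin8, Dpp7, Bmp1 and Pgm3. Their root-mean-square distance to it was 0.073 to 0.093 log2 units. Bmp1, a protease that processes procollagen, read 7.26, 7.32 and 7.39 on the injured arrays, against 7.73, 8.43 and 8.19 on the control arrays. Its injured arrays were nearly equal and all below control replicate 1, the lowest control, and its difference was -0.79 (SE 0.22; limma adjusted p = 0.322).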

How the data were processed

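RNA from 6 tendon samples, 3 injured and 3 with control surgery, was measured on 1 array each. The authors deposited log2 values per probe set. Per the submitters' processing notes they used Affymetrix Expression Console; no source used here gives its version, background correction or normalization. Titles name a rat array and the protocol a mouse array, and probe sets are annotated to rat genes. Of 68842 probe sets, 23446 have 1 gene symbol, 505 several and 44891 none in the platform annotation. Each gene was read from its brightest probe set, giving 22093 genes.

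Values were used as deposited, with no filter. Groups were compared with limma 3.58.1 (lmFit, eBayes, R 4.3.3), two-sided, with Benjamini-Hochberg adjustment over all genes and a threshold of 0.05. The fit was also run on simulated data with the same spread in both groups. That run does not cover arrays that split within a group, as the injured arrays did. Differences are injured minus control. Arrays have no read depth, and their number limits the precision. Promoters came from RefSeq.

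The members, gene lists and tests were chosen with earlier results of these data known. Text names the members, the 2 brightest genes of each pathway list, the 5 closest patterns, and others said to be chosen after their values were seen. Alternatives were quantile normalization, centring, a filter on dim genes, probe set choice, trend and robust eBayes, array weights, the replicate block, a background covariate and leaving out arrays.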

Additional observations from a re-analysis of the deposited data

How the results depend on the processing

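Sfrp1, Sfrp2, Sfrp4, Dkk2 and Dkk3 kept differences below 0 in all 16 alternatives. For the last 4, whose groups do not overlap, only quantile normalization, centring and the covariate could have turned the sign. The median over all genes was 0.15 as deposited, -0.28 after quantile normalization and -0.38 after centring; the antagonists' median was -0.87, -1.25 and -1.40 there, or -1.02, -0.98 and -1.02 relative to all genes. It was -1.25 with dim genes left out, where Wif1 and Sfrp5 were not tested, and -1.04 with the unnamed median as covariate. Leaving out 1 array gave -1.09 to -0.73, with 0 to 13418 genes and 0 to 4 antagonists called; those calls came without injured replicate 1. With injured replicates 2 and 3 left out, 9 genes and 0 antagonists were called. Array weights called 18098 genes and 6 antagonists, but their estimation stopped before convergence and gave injured replicate 3 a weight of 29 and injured replicate 1 one of 0.0531. In the 14 other settings the lowest adjusted p was 0.196 for Sfrp2, 0.240 for Sfrp4, 0.0968 for Dkk2 and 0.155 for Dkk3.

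Sfrp5 and Wif1 turned sign to -0.50 and -0.51 with quantile normalization, to -0.52 and -0.52 with centring, to -0.23 and -0.40 with the covariate, to -0.26 and -0.44 without injured replicates 2 and 3, and Wif1 to -0.011 with array weights. Leaving out 1 array gave -0.15 to 0.22 for Sfrp5, -0.16 to 0.22 for Wif1 and -0.33 to 0.065 for Frzb. The cause was not tested. Deviations of same-numbered arrays from their group means correlated across genes at r = 0.480, -0.043 and 0.589 for replicates 1, 2 and 3. This does not settle whether the numbers pair the samples. The labels do not say that they do. With the replicate block 0 genes and 0 antagonists were called, the median stayed at -0.87, and no call changed.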
